A study of Mus musculus with 2 samples.

Results

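Circadian clock genes of the mouse retinal pigment epithelium (RPE) were described in single cells through 10 genes, Arntl, Clock, Per1, Per2, Per3, Nr1d1, Nr1d2, Bhlhe41, Dbp and Tef. They were taken by symbol from the 27998 genes listed in the deposited matrices, and each symbol matched a single gene. The RPE is the pigmented cell layer that serves the photoreceptors. Cells came from 2 untreated male C57BL/6J mice, R1 and R2, aged postnatal day 36 by the protocol and 4 to 5 weeks by the sample labels, so that the study held a single condition. Both eyes of a mouse were pooled, RPE sheets were freed from the eyecup with warm trypsin and broken up mechanically, and calcein-positive, DAPI-negative cells were sorted into a medium that contained hydrocortisone before droplet capture. The mice lived under a light and dark cycle, but the hour of collection is not given in the sources used here. Each mouse therefore gives a single reading of the clock at an unstated time, and no rhythm can be read from the data.

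Transcripts were counted with unique molecular identifiers (UMIs), short random tags that let each captured molecule be counted once. Cells were kept when they had 500 genes or more and a mitochondrial share of at most 5%, which gave 2782 cells of R1 and 2966 of R2. Cells were divided by Ttr, the transthyretin gene, which the RPE transcribes heavily. Cells with at least 5% of their UMIs from Ttr are called Ttr-high and numbered 2723 in R1 (25660266 UMIs, median 8751 per cell) and 2947 in R2 (29542337 UMIs, median 8158). Cells with less than 3% are called Ttr-low and numbered 59 in R1 (192400 UMIs, median 3200) and 19 in R2 (91115 UMIs, median 3836). No cell (0 in either mouse) lay between these limits. Every Ttr-high cell held at least 3 of 8 RPE markers (Rpe65, Lrat, Rlbp1, Best1, Rgr, Rrh, Otx2 and Mitf), whose levels summed to 313 (R1) and 355 (R2) per 10000 UMIs in these cells and to 27.8 and 14.8 in Ttr-low cells. Best1 was near 0 throughout, with 7 and 11 UMIs in all Ttr-high cells and 0 in Ttr-low cells. The 2 libraries shared 12 cell barcodes, all of them Ttr-high.

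The mammalian clock is a transcriptional feedback loop. The proteins of Arntl (also known as Bmal1) and Clock form a dimer that binds E-box motifs and activates the Per and Cry genes, whose products then repress the dimer, and a second loop runs through the REV-ERB proteins of Nr1d1 and Nr1d2, which repress Arntl by competing with ROR activators. Dbp and Tef encode PAR bZIP factors that carry the rhythm to output genes through D-box motifs, and Bhlhe41 (DEC2) encodes a further E-box repressor. The RPE has a clock of its own and is known for the daily burst of phagocytosis in which it takes up shed photoreceptor outer segments.

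The promoter windows of the clock genes are described for the motifs through which these loops are known to act, and those with a match are shown. RefSeq windows of GRCm38.p6, from 250 bases before to 50 bases after an annotated transcription start, covered 9 of the 10 genes with 14 windows, and Per2 had none. They were searched on both strands for the E-box CACGTG, the D-box TTATGTAA or TTACGTAA and the ROR element, and the matches found did not overlap each other. Per3 held 2 D-boxes, 205 and 158 bases before its start on chromosome 4, upstream of the gene as annotated by GENCODE. The stretch with both is chr4:151044806-151044880 on the minus strand, with the D-boxes in capitals.
Per3: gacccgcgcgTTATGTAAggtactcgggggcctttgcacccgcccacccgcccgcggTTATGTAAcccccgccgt

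A D-box of either form was found in 1.06% of 32851 mouse promoter windows. The E-box was found in windows of Per1, Bhlhe41 and both windows of Tef, and in 7.15% of the windows of the genome. The sequences, with the E-box in capitals, are chr11:69098757-69098814 on the plus strand for Per1 (E-box 166 bases before the start), chr6:145865542-145865599 on the minus strand for Bhlhe41 (153 bases before), and chr15:81802520-81802577 and chr15:81811250-81811307 on the plus strand for the first and second start of Tef (127 and 138 bases before). The E-boxes of Per1 and Tef lie within the span GENCODE gives to these genes, and that of Bhlhe41 lies upstream of its span.
Per1: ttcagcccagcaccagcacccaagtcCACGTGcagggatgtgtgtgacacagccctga
Bhlhe41: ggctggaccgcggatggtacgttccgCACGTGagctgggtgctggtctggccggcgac
Tef, first start: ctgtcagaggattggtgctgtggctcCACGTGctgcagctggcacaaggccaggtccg
Tef, second start: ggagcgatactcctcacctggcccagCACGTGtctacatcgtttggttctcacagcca

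The ROR element (capitals) was found in a single clock gene window, 27 bases after the second annotated start of Arntl (chr7:113207528-113207557, plus strand), and in 0.219% of all windows. These letters were not found in the windows of Clock, Dbp, Nr1d1 and Nr1d2. A match is a description of the sequence and not evidence of binding.
Arntl: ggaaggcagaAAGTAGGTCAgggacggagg

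Dbp was the most abundant clock transcript of Ttr-high cells in both mice. Levels are UMIs of a gene per 10000 UMIs summed over the cells of a mouse, and since each transcript is tagged once near its 3′ end they are not divided by transcript length. Capture can still differ between genes. Gene positions are those of GENCODE on GRCm38. Dbp (ENSMUSG00000059824, chromosome 7, 45705088 to 45710203, plus strand) stood at 5.58 in R1 (95% Poisson interval 5.49 to 5.67) and 5.50 in R2 (5.41 to 5.58), which placed it 194th of 15661 and 191st of 15438 genes with a UMI. It made up 63.2% and 64.2% of the UMIs of the 10 genes. Tef (ENSMUSG00000022389, chromosome 15, 81802421 to 81826863, plus strand), the other PAR bZIP factor, followed at 1.15 in R1 and 0.870 in R2. The intervals given here and below cover counting error only.

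The remaining genes lay more than an order of magnitude below Dbp, except Bhlhe41 in R2. The REV-ERB genes were close to each other. Nr1d1 (ENSMUSG00000020889, chromosome 11, 98767932 to 98775333, minus strand) stood at 0.412 in R1 and 0.386 in R2, and Nr1d2 (ENSMUSG00000021775, chromosome 14, 18204054 to 18239127, minus strand) at 0.428 and 0.365. The Period genes encode the repressors that close the loop. Per1 (ENSMUSG00000020893, chromosome 11, 69095217 to 69109960, plus strand) stood at 0.357 and 0.219, Per3 (ENSMUSG00000028957, chromosome 4, 151003652 to 151044665, minus strand) at 0.203 and 0.212, and Per2 (ENSMUSG00000055866, chromosome 1, 91415982 to 91459324, minus strand) at 0.0850 and 0.0613. Per2 was the least abundant Period gene in both mice. Bhlhe41 (ENSMUSG00000030256, chromosome 6, 145858243 to 145865558, minus strand) stood at 0.277 in R1 and 0.646 in R2. The activators were unequal. Clock (ENSMUSG00000029238, chromosome 5, 76209868 to 76304792, minus strand) stood at 0.292 and 0.265, and Arntl (ENSMUSG00000055116, chromosome 7, 113207465 to 113314126, plus strand) at 0.0456 and 0.0467, the lowest of the 10 genes in each mouse. Arntl and Clock together reached 0.337 and 0.311 per 10000, against 8.49 and 8.25 for the 8 repressor and output genes.

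The order from high to low in R1 was Dbp, Tef, Nr1d2, Nr1d1, Per1, Clock, Bhlhe41, Per3, Per2 and Arntl. Nr1d2 and Nr1d1 (ratio 1.04, 95% counting interval 0.952 to 1.13) and Clock and Bhlhe41 (ratio 1.05, 0.948 to 1.17) did not differ beyond counting error in R1. In R2 Bhlhe41 stood directly after Tef and Per1 fell behind Clock, and the neighbours within counting error were Nr1d1 and Nr1d2 (ratio 1.06, 0.972 to 1.15) and Per1 and Per3 (ratio 1.03, 0.925 to 1.16). The other neighbouring pairs in each mouse had intervals that did not hold 1. This order rests on UMIs summed over cells, in which deep cells weigh more. As a mean over cells of R2, Bhlhe41 (1.10 per 10000) stood above Tef (0.868).

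**Figure D1:**
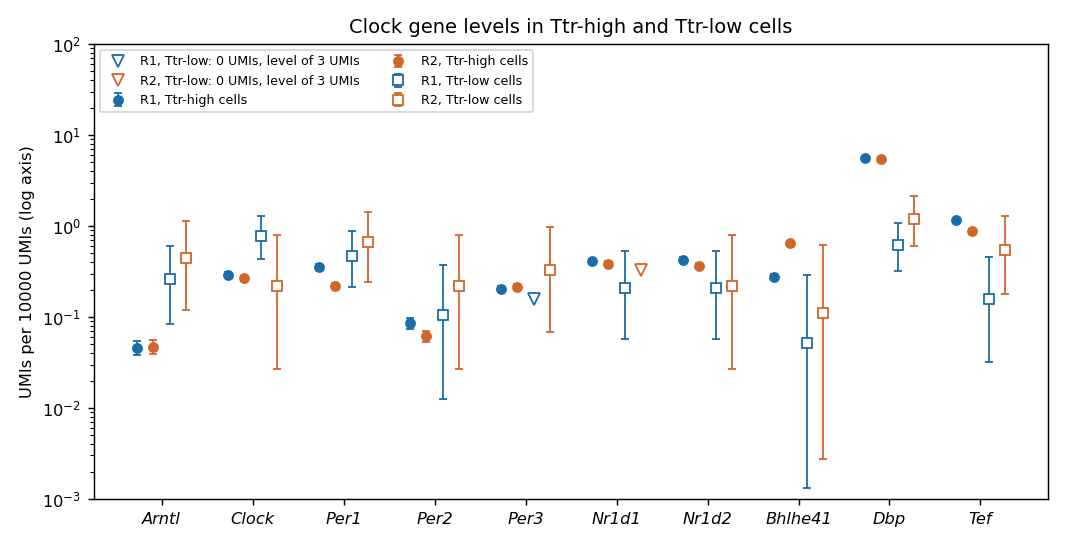
UMIs per 10000 UMIs (log axis) of the 10 clock genes in Ttr-high cells (filled circles) and Ttr-low cells (open squares) of mice R1 (blue) and R2 (orange), with 95% Poisson intervals, and open triangles at the level of 3 UMIs where 0 were counted. Dbp lies near 5.5 in the Ttr-high cells of both mice and at 0.624 and 1.21 in the Ttr-low cells, while Arntl lies higher in Ttr-low cells.

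Dbp was also the clock transcript found in most cells. At least 1 Dbp UMI was present in 92.0% of Ttr-high cells of R1 (exact Clopper-Pearson 95% interval 90.9 to 93.0) and 87.2% of R2 (85.9 to 88.4), with up to 29 and 37 UMIs in a cell. In the deepest of 3 equal groups (tertiles) of cells the share was 99.2% and 98.9%. Tef was found in 52.1% and 41.5% of cells. Nr1d1 was found in 26.3% and 24.5%, Nr1d2 in 25.4% and 20.2%, Per1 in 22.3% and 14.3%, Bhlhe41 in 17.4% and 35.9%, Clock in 16.7% and 14.4%, Per3 in 13.7% and 13.3%, Per2 in 6.10% and 4.34%, and Arntl in 3.27% and 2.92%. These shares follow depth, so a cell without a UMI is not a cell without the transcript. With each cell thinned to 2000 UMIs, which left out none of the Ttr-high or Ttr-low cells, Dbp was expected in 63.0% and 60.5% of Ttr-high cells and in 12.4% and 16.3% of Ttr-low cells. At that depth Tef was expected in 19.7% and 14.2% of Ttr-high cells and Bhlhe41 in 5.86% and 16.9%, so Bhlhe41 passed Tef in R2. Dbp varied between cells beyond counting noise, with a coefficient of variation after removal of the Poisson part of 56.7% in R1 and 56.9% in R2. This was below the median of the 2270 genes with a level of at least 0.5 in both mice (94.6% and 115%). It was above the value of Rpe65, the visual cycle isomerase (38.1% and 32.5%), while Tef stood at 89.5% and 128%. This measure was large for sparse genes, such as Arntl (500% and 684%), and small for abundant ones, such as Ttr (20.1% and 15.5%). Dbp was not compared with genes of its own level, so its place among these values is not set apart from its abundance.

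The comparison of Ttr-low with Ttr-high cells asked whether clock transcripts differ in the small population with little Ttr. Dbp was lower in Ttr-low cells of both mice, with 12 UMIs in R1 (0.624 per 10000, interval 0.322 to 1.09) and 11 in R2 (1.21, 0.603 to 2.16), 8.94-fold and 4.55-fold below Ttr-high cells. The Ttr-low and Ttr-high values of the mice did not overlap. For this and like statements below, the share of all genes that separate in the same way is not given. UMIs were then summed per mouse and cell group and compared by edgeR's quasi-likelihood test with the mouse as a block, TMM scaling (a per-library factor that centres most genes) and p-values adjusted over the whole table by the method of Benjamini and Hochberg. The log2 fold change of Dbp was -3.47 (SE 0.394, adjusted p = 1.13e-16). Over the genome, 11% of 11577 genes passed an adjusted p of 0.05, 6.82% of the genes tested being lower and 4.22% higher in Ttr-low cells.

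Of the 10 clock genes, 4 fell and 0 rose in Ttr-low cells by this test, namely Dbp, Tef, Bhlhe41 and Nr1d1. Tef counted 3 UMIs in R1 and 5 in R2 (0.156 and 0.549 per 10000), 7.39-fold (95% counting interval 2.53 to 35.9) and 1.59-fold (0.679 to 4.89) below Ttr-high cells, and its log2 fold change was -2.54 (SE 0.581, adjusted p = 2.46e-04). Its level in each Ttr-low group lay below both Ttr-high levels. Bhlhe41 counted 1 UMI in each mouse, 5.33-fold (0.954 to 211) and 5.89-fold (1.06 to 233) below, and its log2 fold change was -3.27 (SE 0.946, adjusted p = 0.00717). Nr1d1 counted 4 UMIs in R1 and 0 in R2, the latter at least 1.17-fold lower when set against 3 UMIs, and its log2 fold change was -2.36 (SE 0.842, adjusted p = 0.0473). The calls of Dbp and Tef held in each of 12 alternative settings, with adjusted p from 1.26e-18 to 1.56e-10 for Dbp and from 1.50e-05 to 0.0246 for Tef. Nr1d1 passed in 4 of the 12 (adjusted p from 0.00770 to 0.293) and Bhlhe41 in 10 (from 4.43e-04 to 0.105). DESeq2 called Dbp and Tef alone (adjusted p = 1.56e-10 and 0.0223).

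The other 6 clock genes did not pass the test. Arntl had 5 UMIs in R1 and 4 in R2 (0.260 and 0.439 per 10000), 5.70 times (95% counting interval 1.82 to 13.7) and 9.40 times (2.52 to 24.6) its Ttr-high level. Both intervals lay above 1, but the test gave a log2 fold change of 2.08 (SE 1.10, adjusted p = 0.281), and over the alternatives the adjusted p ranged from 0.0345, without the block, to 0.367. Clock had 15 UMIs in R1 and 2 in R2 (0.780 and 0.220 per 10000), above the Ttr-high level in R1 and below it in R2. Per1 had 9 and 6 UMIs (0.468 and 0.659), and its log2 fold change was 0.15 (SE 0.656, adjusted p = 0.940). Per2 had 2 UMIs in each mouse (edgeR adjusted p = 0.956), Per3 had 0 and 3 (adjusted p = 0.415), and Nr1d2 had 4 and 2 (adjusted p = 0.167, and 0.0313 without the block). The median log2 fold change was -1.66 over the 10 clock genes and -0.39 over all genes tested. Without TMM the median of all genes was 0.37 and that of the clock genes was -0.89, so each of these folds is relative to that shift.

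The Ttr-low group was mixed. At least 1 UMI each of Pax6, a transcription factor of eye development, and Dkk3, a secreted protein of the Dickkopf family, was found in 44 of 59 cells of R1 and 11 of 19 of R2. In R1, 43 Ttr-low cells held at least 3 of the 8 RPE markers, and 10 did so in R2. At least 3 markers of microglia were found in 2 and 1 cells, of fibroblasts in 3 and 2 and of melanocytes in 1 and 0. No cell (0 of 59 and 0 of 19) reached 3 markers of endothelium, mural cells, blood or rods. Among Ttr-high cells, 80 in R1 and 38 in R2 reached 3 melanocyte markers, 2 and 2 those of microglia and 0 and 3 those of fibroblasts. Such counts followed depth. From shallow to deep tertile, 5, 33 and 46 Ttr-high cells of R1 were marked as another type, and 4, 4 and 36 of R2. Ttr-low cells were shallower (median 3200 and 3836 UMIs against 8751 and 8158), so the counts of the groups are not matched for depth. Pax3 had 0 UMIs in both groups of both mice. The melanocyte list holds Mlana, which the paper reports among the top genes of its cluster C1, proposed to be RPE cells. The summed fibroblast list stood at 30.9 and 22.0 per 10000 in Ttr-low cells against 0.0214 and 0.0812 in Ttr-high cells, the microglia list at 8.99 and 11.6 against 0.145 and 0.0477, and the melanocyte list at 53.4 and 34.4 against 2.72 and 2.02, which in R2 came from 2 of its 6 genes, with Sox10, Pax3, Kit and Ednrb at 0. The immediate-early and dissociation list (11 genes, such as Fos, Jun and Hspa1a) stood at 7.07 and 18.0 against 2.31 and 5.45. The part of other cell types and of handling in the clock gene values was not tested beyond the fit that follows. Of the 11 Dbp UMIs in R2, 4 lay in the 2 cells with fibroblast markers. With the 6 and 3 cells marked as another type left out, the log2 fold change of Dbp was -3.57 (edgeR adjusted p = 1.50e-12) and that of Tef -2.74 (adjusted p = 8.14e-04), while Nr1d1 no longer passed (adjusted p = 0.141).

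The median mitochondrial share of Ttr-low cells was 2.57% in R1 and 3.35% in R2, against 1.29% and 1.25% in Ttr-high cells. Free RNA was not removed from either group in the main counts. Clock genes were scaled to the share of the Ttr-high level of Ttr left in Ttr-low cells (6.54% in R1 and 3.16% in R2). The groups were divided by Ttr itself, so the rule held this share low. The scaled values are therefore a description and not a test. Dbp at that share would give 7.02 UMIs in R1 and 1.58 in R2. The 12 Dbp UMIs counted in R1 had a Poisson interval (6.20 to 21.0) that held this value. The interval of the 11 in R2 (5.49 to 19.7) lay above it. The scaled value lay within the interval for Bhlhe41 in both mice, and below it for Arntl, Clock, Per1, Per2 and Nr1d2 in both. For Tef and Per3 it lay within the interval in R1 and below it in R2, and for Nr1d1 the reverse. Whether the Ttr counted in these cells was free RNA was not tested.

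Further genes of the clock were described from a list of 23, of which 20 could be tested. Of these, 3 rose and 2 fell in Ttr-low cells. Nfil3, whose product represses D-box genes in opposition to Dbp and Tef, counted 15 UMIs in R1 and 11 in R2, or 0.780 and 1.21 per 10000 against 0.0347 and 0.0372 in Ttr-high cells, and rose by 3.97 on the log2 scale (SE 0.822, edgeR adjusted p = 3.48e-05). Nfil3 passed in each of 12 alternatives, as did Usp2, a deubiquitinase with clock-controlled transcripts, which stood at 1.61 and 0.768 against 0.222 and 0.116 and had a log2 fold change of 2.05 (SE 0.590, adjusted p = 0.00678). The Ttr-low levels of both genes lay above both Ttr-high levels. Tsc22d3, a glucocorticoid-induced gene, had a log2 fold change of 1.67 (SE 0.520, adjusted p = 0.0154), but this fell to 0.049 (adjusted p = 0.989) without the cells marked as another type. Its adjusted p ranged from 4.03e-05 to 0.989 over the alternatives.

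Rorb, a ROR-family nuclear receptor, had 0 UMIs in the Ttr-low cells of both mice against 0.432 and 0.475 per 10000 in Ttr-high cells, at least 2.77-fold and 1.44-fold lower when set against 3 UMIs in each group. It passed the edgeR test (adjusted p = 1.04e-04) but not that of DESeq2 (adjusted p = 0.534). Ciart (Chrono), a repressor of the Arntl and Clock dimer, had 1 and 0 UMIs and a log2 fold change of -3.73 (SE 1.26, edgeR adjusted p = 0.0317), with an adjusted p of 0.00380 to 0.185 over the alternatives. The most abundant of the listed genes in Ttr-high cells were Gsk3b, a kinase that phosphorylates clock proteins (0.932 and 1.02), Bhlhe40, the paralogue of Bhlhe41 (0.759 and 0.727), Hlf, the remaining PAR bZIP factor (0.618 and 0.532), and Rora (0.514 and 0.482), besides Rorb. The Cry genes, partners of the Per proteins in repression, were lower, Cry1 at 0.105 and 0.0687 and Cry2 at 0.205 and 0.174, and neither passed the test in Ttr-low cells (adjusted p = 0.166 and 0.451). Hlf had 3 UMIs in the Ttr-low cells of R1 and 15 in R2, lower than Ttr-high cells in R1 (0.156 per 10000) and higher in R2 (1.65). Bhlhe40 stood at 2.08 and 1.76 in Ttr-low cells and did not pass (log2 fold change 0.61, SE 0.407, adjusted p = 0.459), so no fall was found for the paralogue, although the difference between the 2 genes was not tested.

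The mice were close for most clock genes in Ttr-high cells. With a single sum per mouse there is no test between them, so ratios of R2 to R1 are given with counting intervals. The ratio for Dbp was 0.985 (95% counting interval 0.963 to 1.01), and intervals held 1 for Arntl (1.02), Clock (0.908), Per3 (1.04) and Nr1d1 (0.935) as well. Nr1d2 (0.853, 0.783 to 0.928), Tef (0.755, 0.716 to 0.796) and Per2 (0.721, 0.589 to 0.882) were lower in R2. Differences of more than 1.5-fold were found for 2 of the 10 genes, beside 5.95% of 10271 genes with at least 100 UMIs in all. Per1 was 1.63-fold lower in R2 (1.48 to 1.81) and Bhlhe41 was 2.33-fold higher in R2 (2.14 to 2.55). The median absolute log2 ratio was 0.18 over the 10 genes and 0.17 over all genes. Per1 was lower in R2 in each depth tertile, at 0.504, 0.580 and 0.660 of R1 from the shallowest to the deepest cells.

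The immediate-early and dissociation list also differed between the mice, at 2.31 per 10000 in Ttr-high cells of R1 and 5.45 in R2. Fos stood at 0.0600 and 0.355 and Jun at 0.364 and 1.07. Of the further clock genes with at least 100 UMIs, those past 1.5-fold were lower in R2, as Per1 was, beside 5.95% of all 10271 genes in either direction. They were Usp2 (1.91-fold, 1.67 to 2.19), Csnk1e (1.55-fold, 1.29 to 1.87) and Cry1 (1.53-fold, 1.27 to 1.84). These folds are scaled to total UMIs. With TMM, given for the 10 clock genes alone, the R2 to R1 ratio of Per1 was 0.654 in place of 0.612, so folds near 1.5 can move with scaling. Whether handling or the hour of collection had a part in the values of Per1, Usp2 or Bhlhe41 was not tested, since each mouse is 1 library.

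**Figure D2:**
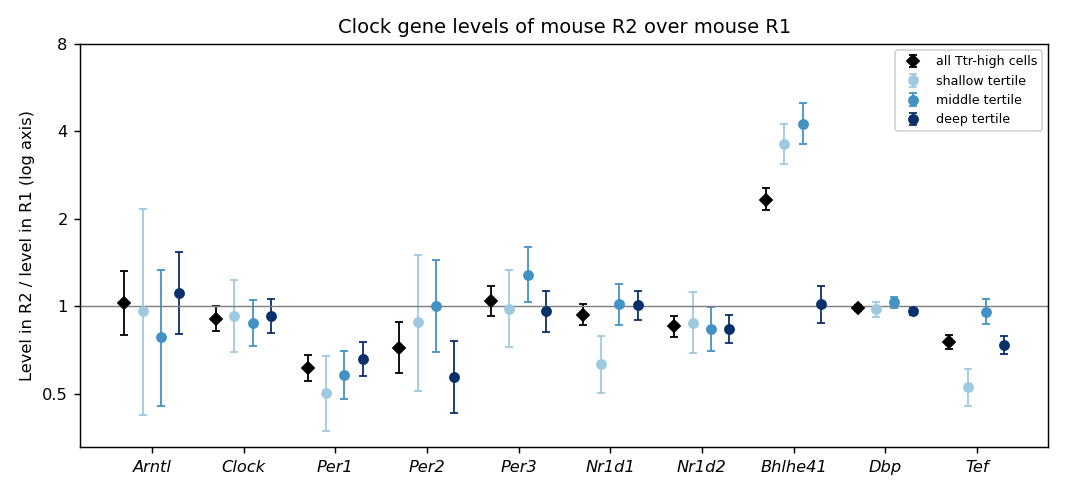
Ratio of the level in R2 to that in R1 (log axis) for each clock gene in all Ttr-high cells (black diamonds) and in the shallow, middle and deep tertile of them by UMIs per cell (light to dark blue), with 95% counting intervals. Bhlhe41 lies at 3.63 and 4.24 in the shallow and middle tertiles and at 1.01 in the deep tertile, and Per1 lies below 1 in each tertile.

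Bhlhe41 had the largest change of level with the depth of a cell among the 10 clock genes in both mice. Its level in R1 was 0.528 per 10000 in the shallowest tertile (2145 to 6455 UMIs), 0.241 in the middle tertile and 0.227 in the deepest (10852 to 34490 UMIs). In R2 it was 1.91 in the shallowest tertile (2745 to 4893 UMIs), 1.02 in the middle and 0.230 in the deepest (11824 to 34617 UMIs). The shallow tertiles of both mice lay above both deep tertiles, by 2.33-fold in R1 (95% counting interval 1.94 to 2.78) and 8.32-fold in R2 (7.35 to 9.43), and the deep tertiles of the mice were alike. The number of Bhlhe41 UMIs per cell was 0.228, 0.209 and 0.346 from the shallow to the deep tertile in R1 and 0.688, 0.834 and 0.422 in R2, so that in R2 the deep cells held fewer Bhlhe41 molecules and not merely a smaller share. By finer steps of depth in R2, the level fell from 2.01 in cells under 4000 UMIs to 0.755 between 8000 and 12000 and 0.204 at 16000 or more.

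In a comparison of the outer depth tertiles, chosen after the data were seen, Bhlhe41 was the clock gene that passed, with a log2 fold change of 2.22 shallow against deep (SE 0.164, edgeR adjusted p = 2.88e-37), the lowest p of the 11070 genes tested. Of these genes 0.678% passed, 0.569% of those tested being higher and 0.108% lower in shallow cells. The other 9 clock genes did not pass, and their log2 fold changes ran from -0.45 for Arntl to 0.32 for Per3, with that of Dbp at -0.019 (SE 0.116, adjusted p = 0.992). Of the further clock genes 0 of 19 passed. The SE of Bhlhe41 does not cover the gap between the mice, whose folds were 2.33 in R1 and 8.32 in R2. The Bhlhe41 call was lost with DESeq2 (log2 fold change 2.14, adjusted p = 1.00) and without the mouse as a block (2.46, adjusted p = 0.524), and it was kept in the other 4 alternatives. Median mitochondrial shares of the shallow and deep tertiles were 2.11% and 1.01% in R1 and 1.32% and 1.07% in R2, and the immediate-early list stood at 2.96 and 2.10 in R1 and 6.20 and 5.20 in R2.

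**Figure D3:**
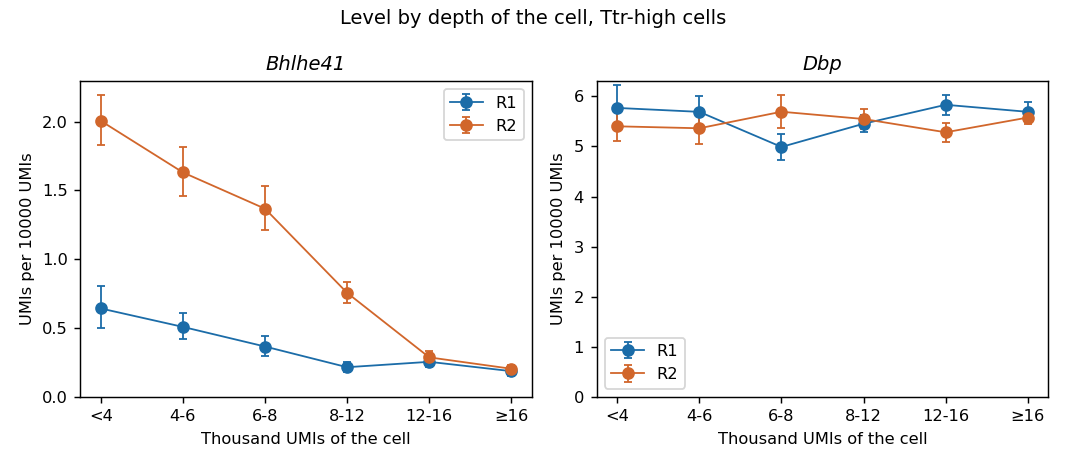
Level in UMIs per 10000 of Bhlhe41 (left) and Dbp (right) in Ttr-high cells of R1 (blue) and R2 (orange) grouped by the UMIs of the cell, with 95% Poisson intervals. Bhlhe41 falls from 0.642 in R1 and 2.01 in R2 in cells under 4000 UMIs to 0.186 and 0.204 at 16000 or more, while Dbp stays between 4.99 and 5.83.

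The genes that varied most closely with Bhlhe41 over cells were Actb, Abhd2 and Gnb1, named after their values were seen. Pearson's r of log(1 + UMIs per 10000) was 0.199 in R1 (2723 cells) and 0.349 in R2 (2947 cells) for Actb, which encodes beta-actin, 0.0918 and 0.195 for Abhd2, and 0.0651 and 0.140 for Gnb1. The cells share a library, and depth moves with these genes, since Actb fell from 4.41 per 10000 in shallow to 2.96 in deep cells of R1 and from 11.0 to 2.91 in R2. Within depth tertiles the r of Actb with Bhlhe41 was 0.268, 0.143 and 0.0521 in R1 and 0.120, 0.412 and 0.151 in R2 from shallow to deep. In the same order Abhd2 had 0.146, 0.0768 and -0.0320 in R1 and 0.0548, 0.253 and 0.161 in R2. Gnb1 had 0.0938, 0.0262 and 0.0303 in R1 and 0.0460, 0.167 and 0.114 in R2.

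Clock genes were next set against the mitochondrial share of a cell, within 10 groups of equal depth, again in a comparison chosen after the data were seen. Tef, Per1 and Per3 were higher in the tertile of cells with the highest mitochondrial share. Tef rose from 0.915 to 1.41 per 10000 in R1 and from 0.693 to 1.02 in R2 (log2 fold change 0.53, SE 0.0737, edgeR adjusted p = 1.26e-10). Per1 rose from 0.294 to 0.448 and from 0.178 to 0.269 (0.53, SE 0.125, adjusted p = 3.97e-04), and Per3 from 0.180 to 0.234 and from 0.150 to 0.271 (0.56, SE 0.147, adjusted p = 0.00206). Each of the 3 genes was higher in the high tertile of both mice, and the high and low levels overlapped across the mice for Per1 but not for Tef and Per3. Dbp did not pass, at 5.61 and 5.55 in R1 and 5.52 and 5.58 in R2 (-0.064, SE 0.0462, adjusted p = 0.367).

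Bhlhe41 fell with the mitochondrial share (log2 fold change -0.46, SE 0.101, edgeR adjusted p = 1.31e-04), from 0.289 to 0.283 in R1 and from 0.795 to 0.514 in R2. In R1 the ratio of 0.982 had a counting interval that held 1 (0.819 to 1.18), so the fall rested on R2. Against 3 of 10 clock genes higher and 1 lower, 18.3% of 11124 genes passed, 8.58% higher and 9.68% lower, and the median log2 fold change was 0.15 over the clock genes and 0.0096 over all genes. The call of Tef was kept with DESeq2 (adjusted p = 8.87e-04), which gave no adjusted p for Per1, Per3 and Bhlhe41. Without the mouse as a block none of the 4 passed (0 of 10 clock genes, with adjusted p of 0.263 for Tef, 0.343 for Per1, 0.264 for Per3 and 0.539 for Bhlhe41). Of 20 further clock genes, Cry2 (0.40), Hlf (0.27) and Csnk1d (0.37) rose and Nampt (-0.51) fell, a share near the 18.3% of all genes. Without the block 0 of the 20 passed, DESeq2 gave these 4 no adjusted p, and Cry2 and Nampt each passed in 2 of the 5 alternatives that gave one. The fall of Nampt was not seen in R2 alone.

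Cells were also compared by their level of the immediate-early and dissociation list and, with Dbp itself removed, by their level of Dbp, in both cases within groups of equal depth and after the data were seen. Between the outer immediate-early tertiles 0 of 10 clock genes passed, beside 0.405% of 11116 genes (0.315% higher and 0.09% lower in the high tertile). Nr1d1 had the lowest unadjusted p (0.00826, log2 fold change 0.30, SE 0.112, edgeR adjusted p = 0.576), and it was the one clock gene under 0.05 before adjustment. Per1 had a log2 fold change of 0.027 (SE 0.129, adjusted p = 0.995) and Bhlhe41 of 0.11 (SE 0.110, adjusted p = 0.981), and DESeq2 called 0 clock genes as well.

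Between the outer Dbp tertiles, in which Dbp itself stood at 2.30 and 9.34 per 10000 in R1 and 2.12 and 9.36 in R2, 0 of the other 9 clock genes passed with edgeR or DESeq2, beside 0.297% of 11093 genes (0.0361% higher and 0.261% lower in the high tertile). Arntl (-0.73, SE 0.301), Bhlhe41 (0.20, SE 0.0965) and Per1 (0.25, SE 0.122) had unadjusted p of 0.0148, 0.0353 and 0.0391 in the edgeR fit, and adjusted p of 0.574, 0.697 and 0.709. Arntl was at 0.0629 in the low Dbp tertile and 0.0366 in the high one in R1, and at 0.0565 and 0.0357 in R2. Tef had a log2 fold change of 0.12 (SE 0.0663, adjusted p = 0.786). Among 20 further clock genes Ciart passed, at 0.253 and 0.356 in R1 and 0.215 and 0.323 in R2 (0.53, SE 0.123, edgeR adjusted p = 0.00744). It was higher in the high Dbp tertile of both mice, but with DESeq2 its adjusted p was 1.00, and over the alternatives it ranged from 0.00432 to 1.00.

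**Figure D4:**
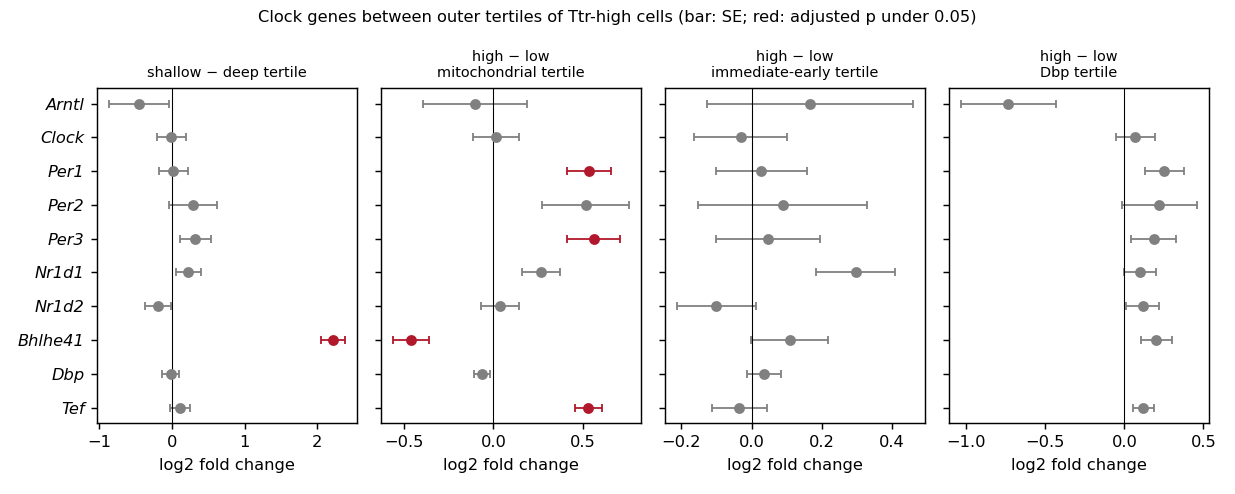
Log2 fold change with its SE (edgeR) of the clock genes between outer tertiles of Ttr-high cells by depth, mitochondrial share, immediate-early level and Dbp level, each panel with its own axis, and red where the adjusted p is under 0.05. Bhlhe41 is red at 2.22 for depth and -0.46 for mitochondrial share, Tef, Per1 and Per3 are red between 0.53 and 0.56 for mitochondrial share, and no gene is red in the last 2 panels.

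The clock arms had small values of Pearson's r over single cells in both mice. Sparse counts hold r near 0 (Arntl was found in 3.27% and 2.92% of cells), so a small r does not show that covariation is weak. Pearson's r was computed over the Ttr-high cells of each mouse for the 45 pairs of the 10 genes, as a description, since the cells of a pair share library and depth. No absolute value exceeded 0.0796, and the median r was 0.024 in R1 and 0.0023 in R2. Pairs were positive in both mice in 21 of 45 cases and negative in both in 9. Among the 16 pairs of an activator (Arntl or Clock) with a repressor or output gene, 5 were positive and 4 negative in both mice. Among the 28 pairs of repressor and output genes, 16 were positive and 5 negative in both. The signs depended on the measure, since 33 of the 45 pairs were positive in both mice by Spearman's rho, 15 by a covariance with the counting noise removed and 12 by Pearson's r in the middle depth tertile, and the 16 output pairs became 22, 12 and 9. The pair of activators, Arntl and Clock, had an r of 0.027 in R1 and -0.015 in R2.

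The largest values involved Tef. Its r with Per2 was 0.0796 in R1 and 0.0390 in R2, with Nr1d1 0.0743 and 0.0594, with Per1 0.0418 and 0.0584, and with Dbp 0.0376 and 0.0791. Bhlhe41 and Tef had opposite signs, at 0.0567 in R1 and -0.0789 in R2. Arntl was negative with Dbp (-0.0104 and -0.0129), Tef (-0.0196 and -0.0098), Nr1d2 (-0.0102 and -0.0306) and Bhlhe41 (-0.028 and -0.020) in both mice. With counts this sparse, values of this size are no finding. The central 95% of r values of Tef with 8280 genes ran from -0.0397 to 0.0687 in R1 and from -0.0215 to 0.0690 in R2. Per2 and Nr1d1 lay above that range in R1 but not in R2, Dbp above it in R2 but not in R1, and Bhlhe41 below it in R2. The same range for Bhlhe41 itself ran from -0.0440 to 0.0422 in R1 and from -0.0838 to 0.0133 in R2. Its r with Tef lay above that range in R1 and within it in R2.

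**Figure D5:**
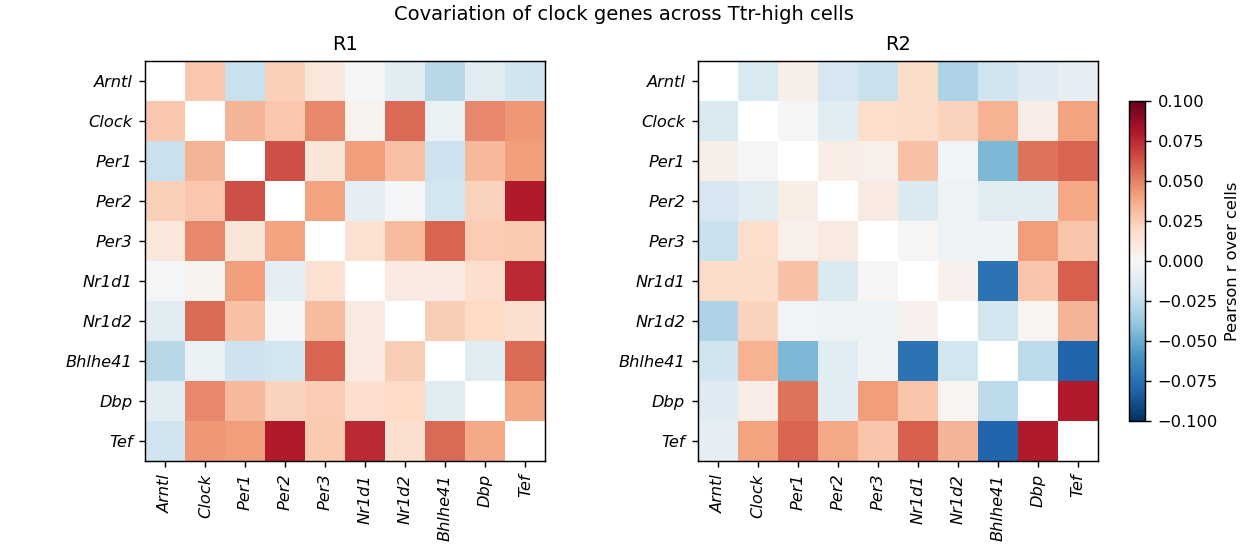
Pearson's r over Ttr-high cells of R1 (2723 cells, left) and R2 (2947 cells, right) for each pair of clock genes, on a colour scale from -0.1 (blue) to 0.1 (red) with the diagonal left white. No pair goes past 0.0796 in absolute value, Tef is red with most genes in both mice, and Bhlhe41 with Tef is red in R1 and blue in R2.

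For Dbp and Tef, the clock genes with at least 0.5 UMIs per 10000 in both mice, the genes of most similar pattern were sought among 2270 genes of that level, ranked by the lower r of the mice. For Dbp they were Dynll2 (0.0863 in R1 and 0.0803 in R2), Cfl1 (0.0737 and 0.0771) and Rps19 (0.0811 and 0.0716). For Tef they were Timp3 (0.172 and 0.118), mt-Nd5 (0.139 and 0.108) and Malat1 (0.160 and 0.107). None of the 6 is a clock gene, and each r is over 2723 cells of R1 and 2947 cells of R2 that share library and depth.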

How the data were processed

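Per the labels, single RPE cells of 2 mice were sequenced on a droplet platform and processed by the authors with bcl2fastq 2.20.0.422 and Cell Ranger 1.2.0 (GRCm38). The labels and the study's methods name different versions of the kit. The deposited values are UMI counts per gene and cell, not normalized and not corrected for ambient RNA or doublets. No doublet caller was run here, and ambient RNA was left in. Both were varied in alternatives (the 4% of cells with most UMIs left out, 10% ambient RNA subtracted).

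Counts were summed per mouse and cell group. The 4 sums, paired because both of a pair come from the same animal, were tested with edgeR 4.0.16 (R 4.3.3; TMM, filterByExpr, mouse as a block, 1 residual degree of freedom) and, as an alternative, DESeq2 1.42.0, with a false discovery rate of 0.05. The scripts were tested on simulated data. Cells are not replicates, so n = 2 mice. With 1 residual degree of freedom, edgeR's p-values rest on a spread moderated over all genes tested, not on the 2 pairs of a gene alone. They and the SEs, which were derived from the same test, can understate how far the mice differ for a gene. A rule named the 10 clock genes, up to 5 further clock genes by adjusted p and 5 by level, and 3 similar genes for each abundant one. Named outside this rule were Actb, Abhd2 and Gnb1, after their values were seen, and Cry1, Cry2, Csnk1d, Csnk1e and Nampt. Members and lists were chosen with earlier results of these data known, and the tertiles were added after the data were seen. Coordinates are GENCODE's or RefSeq's on GRCm38. Per2 had no promoter window in the table used.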

Additional observations from a re-analysis of the deposited data

How the results depend on the processing

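Counts of genes called between cell groups moved with some settings. Between Ttr-low and Ttr-high cells, 1279 genes were called, and 2264 without the replicate block that pairs the sums of a mouse. The other 11 alternatives stayed within 1.5 times. Genes higher in Ttr-low cells made up 38.2% of the calls, but 74.0% without TMM and 53.9% with DESeq2's Wald test, so directions over the genome depend on scaling, and the 4 clock genes called stayed lower in each of the 12 alternatives. Clock gene calls were 0 higher and 4 lower, 0 and 2 without TMM or with DESeq2's Wald test, and 1 and 5 without the replicate block.

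Calls between depth tertiles numbered 75, against 41 without TMM, 11 with DESeq2 and 0 without the replicate block (427 genes at an unadjusted p under 0.05). Between mitochondrial tertiles there were 2031, against 460 with DESeq2 and 9 without the replicate block, and 47.0% of the calls were higher, against 68.1% without TMM and 20.4% with DESeq2. Between immediate-early tertiles there were 45, against 15 with DESeq2, 14 without the filter on low counts, 0 without the replicate block (183 at an unadjusted p under 0.05) and 12 without cells marked as another type. Between Dbp tertiles there were 33, against 3, 2, 0 (165 at an unadjusted p under 0.05) and 12 in the same order. The cause was not tested. The mitochondrial fold change of Nampt (-0.51 on the log2 scale) was -0.88 without replicate 2 and reversed to 0.017 without replicate 1.

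With 1 mouse left out no test can be made, since no residual degrees of freedom remain. The 78 Ttr-low cells and the 2 mice limit precision.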
